A study of Canis lupus familiaris with 30 samples.

Results

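Of 18582 dog genes counted in stroma from canine simple mammary carcinoma, 100 were chosen because their level varied more between dogs in normal stroma than in cancer-associated stroma (CAS). The level of a gene was its estimated count scaled to a library total of 1000000 (CPM), used as log2(CPM + 1). A gene could be chosen if its median was between 30 and 500 CPM in both stromas, if the medians of both stromas lay within 4-fold of each other and if the correlation between the stromas of a dog was below 0.8. Of 2821 genes that met these limits, the 100 with the largest standard deviation (SD) in normal stroma minus that in CAS were taken. Because these values chose the genes, the larger spread in normal stroma is a description and not a finding.

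The stroma of the mammary gland is the connective tissue around ducts and lobules, and it holds fibroblasts, blood vessels, fat cells, nerves and immune cells embedded in collagen-rich matrix. CAS is the stroma of a tumour, in which fibroblasts, vessels and immune cells are altered and which is studied for its part in tumour growth. Gland and stroma respond to ovarian hormones, whose main source is removed by neutering. The data did not pair the gene IDs with gene names, so the functions of the 100 genes, markers of cell types and sequences were not analysed here, and genes are given by Ensembl ID.

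Stroma was isolated by laser-capture microdissection (LCM), which cuts chosen areas from a tissue section, from formalin-fixed paraffin-embedded (FFPE) specimens of 15 dogs with spontaneous tumours. Each dog gave 1 library of CAS and 1 of normal stroma, the latter cut next to unaltered glands in the specimen of a dog with cancer and not from healthy animals. The labels named no treatment or genotype for either stroma. They gave 6 dogs as neutered and said nothing of neutering for 9, gave the carcinoma as tubular in 8 dogs and as another simple subtype in 7 (tubulo-papillary, cystic-papillary, tubular-solid or cribriform), an age of the dog of 4 to 14 years and an age of the tissue block of 3 to 27 months. The normal stroma libraries of dogs 128 and 136, with 29284 and 32528 counts, took no part in the choice and are left out unless stated. The other 13 normal stroma libraries held 617177 to 3932370 counts (median 2542342) and the 15 CAS libraries 1361951 to 5572761 (median 3434684). The libraries are of bulk tissue, so fewer cells of a type and less RNA per cell cannot be told apart.

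For most of the chosen genes the largest part of the spread was a low value in the normal stroma of a single animal, dog 131. Some of these genes also varied widely among the other dogs, as given below. For 69 of the 100 genes the normal stroma library of dog 131 contributed the largest part of the squared deviations from the mean, and in 65 of these 69 its value was below that of the other dogs. Among all 2821 genes that could have been chosen this library contributed the largest part for 20.8%. The choice favoured genes with an extreme value in normal stroma, so this contrast and the levels of the 100 genes that follow are descriptions. The normal stroma library of dog 131 had the lowest total of the 13. The median level of the 100 genes was 3.24 CPM in this library and between 35.1 and 63.5 CPM in the other 12 normal stroma libraries, whereas the median of the 2821 genes was 60.0 CPM in it and 44.5 to 93.8 CPM in the others. The 2821 genes were not shifted as a whole in this library, but more of them were low there than in any other, 170 (6.03%) lying over 4-fold below the median of the other dogs against at most 55 (1.95%) in each of the other 12.

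**Figure D1:**
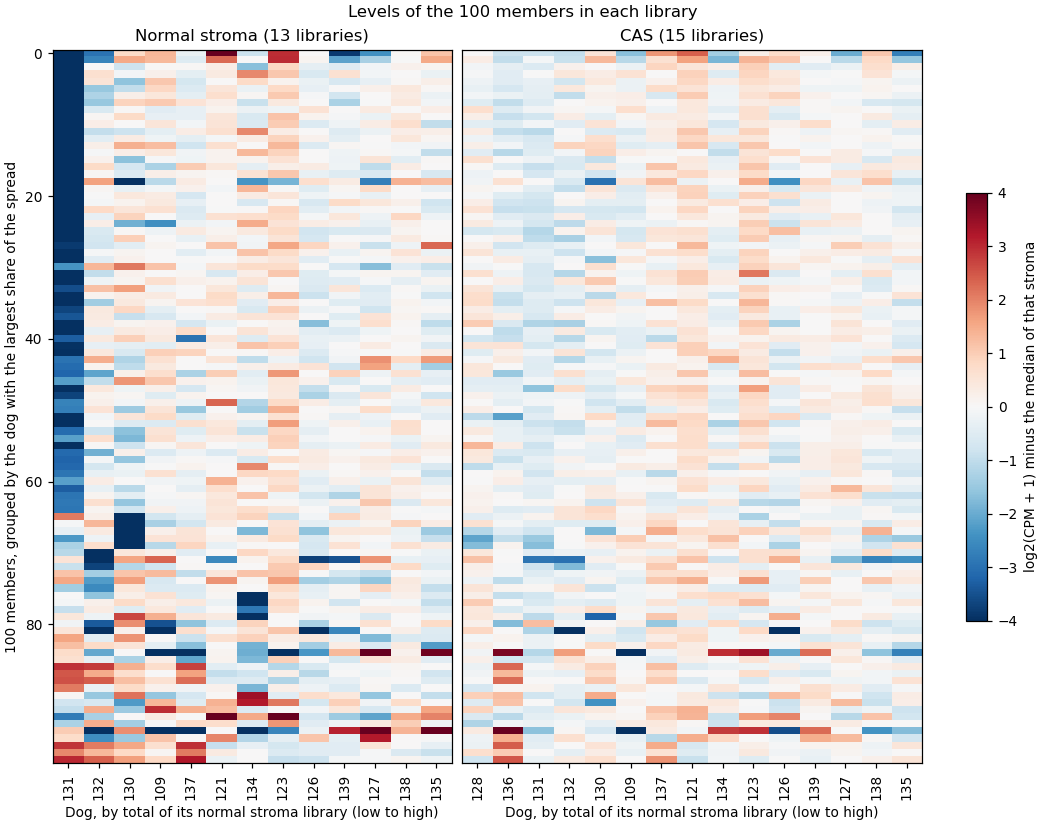
Level of each of the 100 genes (rows) in 13 normal stroma and 15 CAS libraries (columns, ordered from the lowest to the highest total of the dog's normal stroma library), as the difference in log2(CPM + 1) from the median of that stroma; the colour scale ends at 4 in either direction. Rows are grouped by the dog with the largest part in the spread, and the block of low values in the first column of normal stroma belongs to the 65 genes that were low in dog 131.

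The 65 genes low in dog 131 had between 0 and 15 counts in its normal stroma library, with a median of 1 count. At the median level of the other 12 dogs, between 19.9 and 79.6 counts (median 26.7) would have been counted in a library of this total. In this library 30 of the genes had 0 counts, 26 had 1 to 3 counts and 9 had more than 3, and a count of 0 there allows a level of up to 4.86 CPM, the level of 3 counts; this limit covers counting error only. The median level of the 65 genes was 1.62 CPM in dog 131 and 43.3 CPM over the other dogs. On the scale of log2(CPM + 1) the median difference was -4.57, and -2.88 when values under 3 counts were set to 3. In the CAS of dog 131 none of the 65 genes was at 0, and their median was 36.9 CPM against 55.0 CPM in the CAS of the other dogs. There 60 of the 65 lay within 2-fold of the median of the other dogs. For 14 of the 65 the CAS library of dog 131 held the lowest CAS value, beside 30.6% of the 2821 genes. The choice favoured genes with a small spread in CAS, so these counts are descriptions. The median difference of the 65 genes in the CAS of dog 131 was -0.52, beside -0.67 over all 2821 genes in the same library.

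Genes at 0 were few outside this group. In the normal stroma of dog 131, 34 of the 2821 genes were at 0, and 30 of the 34 were among the 100. At least 1 normal stroma library held 0 counts for 37 of the 100 genes, and for 7 this was in a dog other than 131. Genes more than 4-fold below the median of the other dogs numbered 67 of the 100 in dog 131 (170 of the 2821), 13 in dog 132 (55 of the 2821), 8 in dog 130 (55 of the 2821) and 0 to 7 in each of the other 10 dogs. For a gene with a median of 30 CPM or more, a 0 or a very low value in 1 library alone gives a large SD. The choice favoured such genes, so these counts are descriptions. Dogs 131, 132 and 130 had the 3 lowest totals of the 13 libraries, at 617177, 769370 and 1141471 counts. How the levels of the 100 genes went with the library total is given below. The cause of these low values was not tested.

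**Figure D2:**
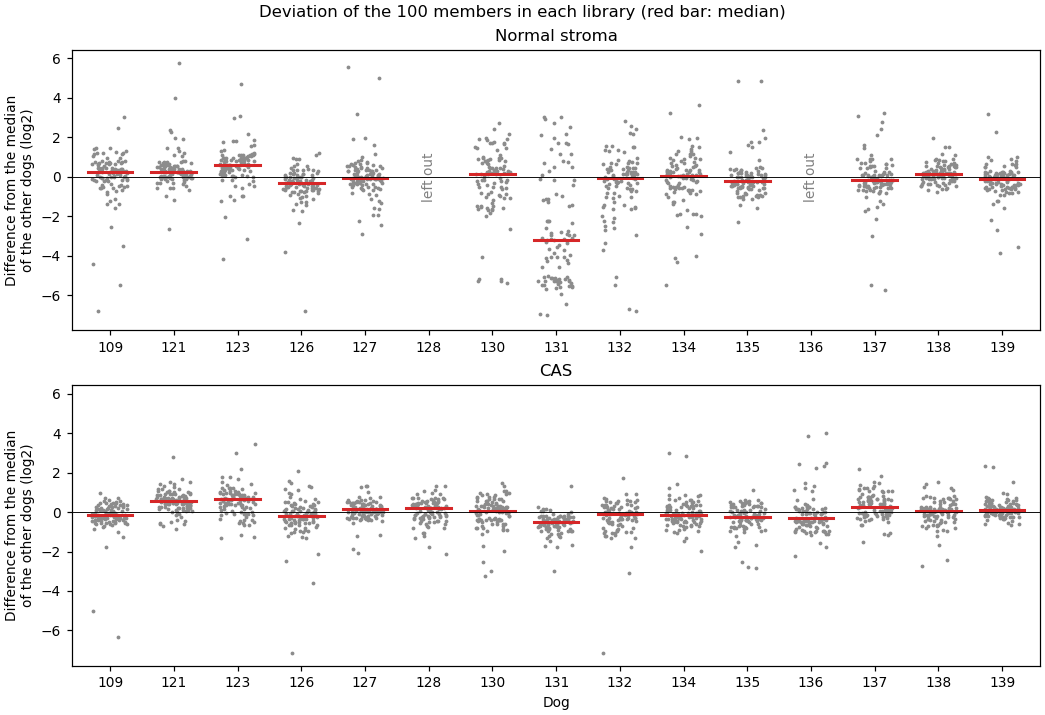
Difference in log2(CPM + 1) of each of the 100 genes (points) from the median of the other dogs, for each dog (x axis), in normal stroma (upper panel) and CAS (lower panel), with the median over the genes as a bar. The bar of dog 131 lies at -3.22 in normal stroma and at -0.52 in CAS, while in the other dogs the bars of both panels lie between -0.33 and 0.64.

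Over all 13 dogs the SD of the 100 genes in normal stroma ranged from 0.811 to 3.79 (median 1.38), while their median SD in CAS was 0.526. Over the 2821 genes these medians were 0.566 and 0.537. The last genes taken, ENSCAFG00000003692 and ENSCAFG00000011495, had differences in SD of 0.4992 and 0.4991, and the first ones left out, ENSCAFG00000030052 and ENSCAFG00000002289, of 0.4988 and 0.4979. The spread that counting alone would give had a median of 0.168 over the 100 genes. With both libraries of dog 131 left out, the median SD was 0.730 in normal stroma and 0.524 in CAS, beside 0.531 and 0.520 over the 2821 genes. The SD in normal stroma then exceeded that in CAS for 81 of the 100 genes (52.6% of the 2821), and 33 genes had an SD over 1 in place of 86. The remaining libraries also entered the choice, so this excess is a description. Choosing anew without dog 131 returned 39 of the 100 genes, 11 of them from the 65 that were low in this dog.

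**Figure D3:**
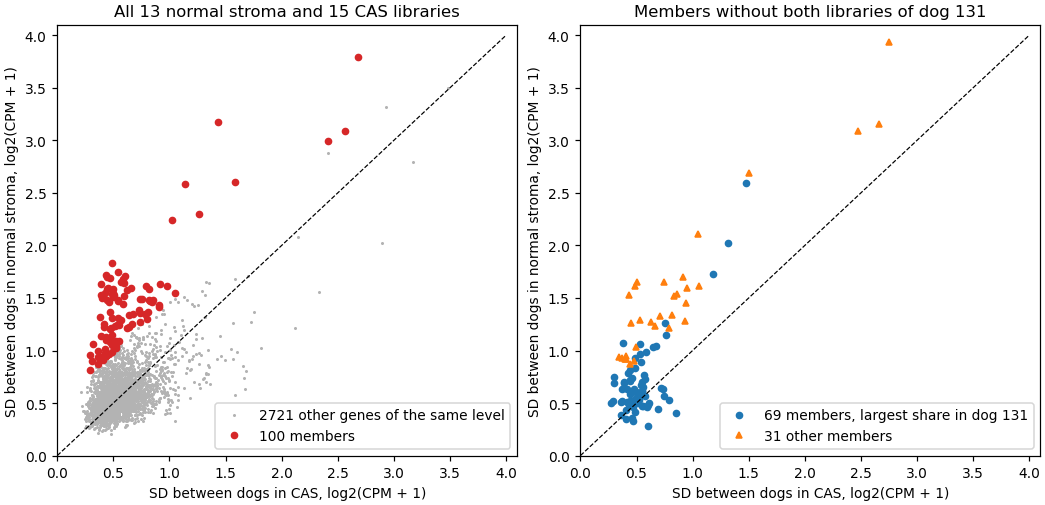
SD between dogs of log2(CPM + 1) in normal stroma (y axis) against CAS (x axis), 1 point per gene; the dashed line marks equal SD. Left, all libraries, with the 100 genes in red and the 2721 other genes of like abundance in grey. Right, the 100 genes without both libraries of dog 131, in blue the 69 for which this dog had the largest part in the spread and in orange the 31 others; the 65 that were low in dog 131 then have a median SD of 0.601 in normal stroma and 0.497 in CAS.

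A single library dominated the spread of most of these genes. The largest contribution of 1 library to the squared deviations in normal stroma had a median of 67.7% over the 100 genes and of 32.6% over the 2821, and it exceeded 50% in 65 of the 100. In the CAS libraries the largest contribution to the spread of the 100 genes had a median of 25.9%. The choice by a large SD in normal stroma and a small one in CAS favours genes with 1 extreme normal stroma library. These shares are therefore descriptions, and those of the stromas rest on different numbers of libraries (13 and 15). The dominant value was a low one for 86 genes and a high one for 14. Outside dog 131 the groups were small. Dog 132 was low for 6 genes, at a median of 3.90 CPM against 47.1 CPM in the other dogs, and dog 130 was low for 5 genes, of which 3 were at 0. Dog 134 was low for 4 genes, at 1.97 against 54.2 CPM. In CAS of the same dogs, 4 of the 6, 4 of the 5 and 4 of the 4 genes lay within 2-fold of the median of the other dogs. A small spread in CAS was part of the choice, so this nearness is a description.

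High values came from few dogs too. Dog 131 was high for 4 genes (median 417 CPM against 66.9 CPM in the other dogs), and in its CAS all 4 lay within 2-fold of the other dogs. The choice favoured such nearness in CAS here too. Dog 137 was high for 3 genes, at 1702 against 322 CPM, and in its CAS all 3 were also above the median of the other dogs, at 537 against 252 CPM. These genes of dogs 131 and 137 include the 6 called for the neuter label below. For each of those 6, dogs 131, 132 and 137 were the 3 highest. The part of the 1 dog in the spread had a median of 29.8% for the genes high in dog 131. It was 26.5% for those high in dog 137. Dogs 123, 127 and 134 were high for 2 genes each and dog 109 for 1. Leaving out each dog in turn and choosing anew returned 11 of the 100 genes every time; 9 of these 11 had the largest part of their spread in dog 131, and their SD in normal stroma without that dog ranged from 0.748 to 2.60.

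ENSCAFG00000007251 had the largest difference in SD between the stromas. In normal stroma it ranged from 0 CPM in dog 131 to 6464 CPM in dog 121, with a median of 128 CPM, and in CAS from 19.96 CPM in dog 135 to 726 CPM in dog 121, with a median of 139 CPM. Normal stroma thus held both the lowest and the highest values, and dog 121 was the highest in both stromas. The SD was 3.18 in normal stroma and 1.43 in CAS, and 2.60 and 1.47 without dog 131. ENSCAFG00000031250, the next in order, ranged from 0 CPM in dog 131 to 934 CPM in dog 123 in normal stroma (median 118 CPM) and from 27.3 to 305 CPM in CAS (median 98.9 CPM). Both genes were among the 11 returned whichever dog was left out. Of the 99 other chosen genes ENSCAFG00000031250 followed ENSCAFG00000007251 most closely, with a Pearson correlation of 0.91 over the 12 normal stroma libraries without dog 131 and of 0.87 over the 15 CAS libraries, and ENSCAFG00000009570 came next with 0.85 and 0.75. The 2 genes of each pair were counted in the same libraries and share their depth.

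Like most of the chosen genes, ENSCAFG00000028955 and ENSCAFG00000016146 were low in the normal stroma of dog 131. Fewer of the chosen genes were at 0 there, as both of these were. Their range in the other dogs was narrower than that of ENSCAFG00000007251 and ENSCAFG00000031250. ENSCAFG00000028955 was at 0 CPM in the normal stroma of dog 131 and between 25.6 and 150 CPM in the other 12 dogs, with a median of 85.6 CPM. Over the 13 normal stroma libraries it had a mean of 74.9 ± 37.2 CPM (SD, n = 13), and in CAS one of 104 ± 37.7 CPM (SD, n = 15), where it ranged from 63.5 CPM in dog 131 to 182 CPM in dog 123. About 52.8 counts would have been counted in the library of dog 131 at the median level of the other dogs. Without dog 131 its SD on the log2 scale fell from 1.84 to 0.63 in normal stroma, beside 0.47 in CAS. ENSCAFG00000016146 was at 0 CPM in the normal stroma of dog 131 and between 21.4 and 108 CPM in the other dogs (median 44.0 CPM), and its level in CAS was 19.5 to 80.0 CPM, with 30.3 CPM in dog 131. Without dog 131 its SD was 0.57 in normal stroma and 0.58 in CAS. The CAS library of dog 131 lay within the range of the other dogs for ENSCAFG00000016146 and just below it for ENSCAFG00000028955.

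**Figure D4:**
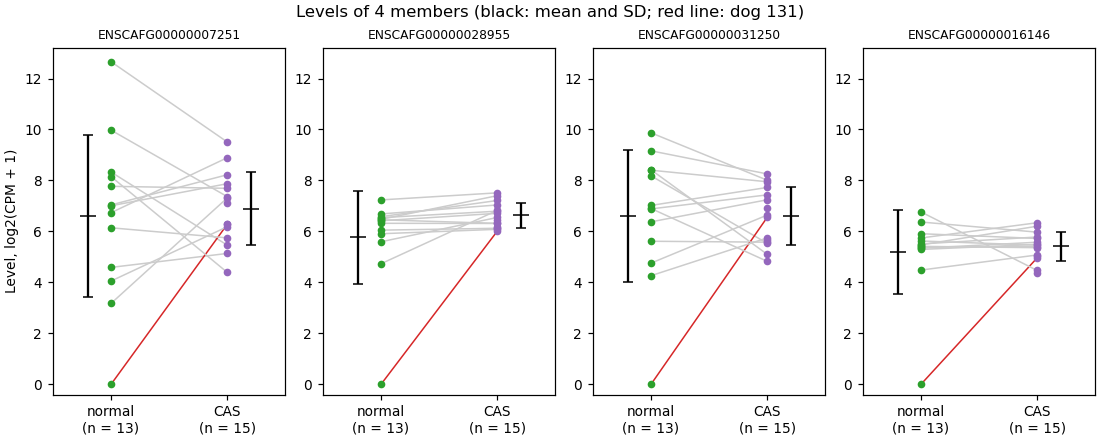
Level in log2(CPM + 1) (y axis) of the 4 genes named by rule, in normal stroma (n = 13) and CAS (n = 15); points are libraries, lines join the libraries of a dog, black bars give mean and SD, and the red line is dog 131, which is at 0 in normal stroma for all 4 genes. ENSCAFG00000007251 and ENSCAFG00000031250 spread over a wider range in the other dogs than ENSCAFG00000028955 and ENSCAFG00000016146 did.

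Besides ENSCAFG00000007251, the genes with an SD of about 3 or more in normal stroma were 3 that were not low in dog 131 and at 0 in other dogs. They were singled out after their values were seen. ENSCAFG00000030739 (SD 3.79 in normal stroma and 2.68 in CAS) had 0 counts in the normal stroma of 4 dogs and reached 1396 CPM in dog 127 (median 30.8 CPM). In CAS it was at 0 CPM in dog 109 and reached 1214 CPM in dog 136 (median 76.3 CPM). The correlation of its level between the stromas of a dog was -0.02 over 13 dogs. In dog 135, for example, it measured 835 CPM in normal stroma and 22.1 CPM in CAS, whereas dog 139 was high in both, at 267 and 374 CPM. ENSCAFG00000031806 moved with it across libraries, with a correlation of 0.90 in normal stroma and of 0.96 in CAS. In contrast, ENSCAFG00000009071 (SD 3.09 and 2.57) was at 0 in the normal stroma of dogs 109, 126 and 132, and in CAS at 0 in dogs 126 and 132 but at 76.1 CPM in dog 109. Its median was 106 CPM in normal stroma and 133 CPM in CAS, its correlation between the stromas was 0.78, just under the limit of the choice, and it and ENSCAFG00000030739 were the only chosen genes at 0 in any CAS library. Whether reads of these genes were shared with close copies in the genome was not tested.

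Once dog 131 was set aside the 100 genes followed each other little across libraries. The median Pearson correlation over their 4950 pairs was 0.35 over the 13 normal stroma libraries, 0.09 without dog 131 and 0.23 over the CAS libraries. Over all pairs of the 2821 genes the medians were 0.23, 0.27 and 0.38. Among the 65 genes low in dog 131 the median was 0.18 in normal stroma without dog 131 and 0.37 in CAS. The choice put together genes with extreme values in different dogs, so these medians are descriptions. The median correlation of a gene's level with the log10 total of the library in normal stroma was 0.46 over the 100 genes and 0.07 over the 2821, and without dog 131 it was 0.10 and 0.03. In the 2 normal stroma libraries left out for their depth, 26 and 34 of the 100 genes were at 0, and the 100 genes together took 469 and 611 counts, so these libraries could not show whether further dogs lacked the genes.

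The labels of the dogs were compared across all genes in the 13 normal stroma libraries with edgeR's quasi-likelihood test and Benjamini-Hochberg adjustment. The rule used no label, but it took genes with a large spread in these same libraries and a small one in CAS, which favours genes that differ by any label in normal stroma. The counts of called genes are therefore descriptions of the chosen genes, and nothing is read from their excess over the share of all genes. For the neuter label, 6 of the 100 genes were called at an adjusted p below 0.05, all higher in the 5 dogs labelled neutered than in the 8 not so labelled, and 0.489% of the 10421 genes tested were called. At an unadjusted p below 0.05 there were 19 of the 100 genes, and 8.16% of all genes. DESeq2 also called 6 of the 100, all higher in neutered dogs, and 1.09% of all genes. The log2 fold changes of the 6 genes ranged from 1.70 to 2.66, with standard errors (SE) from 0.31 to 0.38 and adjusted p from 0.00146 to 0.0102. In 4 of the 6 the lowest neutered dog lay above the highest other dog, which was so for 0.355% of all genes tested, while the reverse order was seen in 0 of the 100 and in 0.278% of all genes.

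ENSCAFG00000009104 measured 564, 1023, 2635, 1727 and 3014 CPM in the normal stroma of neutered dogs 109, 130, 131, 132 and 137. In the 8 other dogs it ranged from 173 to 354 CPM, with a median of 301 CPM. The groups did not overlap, and edgeR gave a difference of 2.66 on the log2 scale (SE 0.36, adjusted p = 0.00146). ENSCAFG00000013073 measured 346, 652, 1604, 933 and 1702 CPM in the same neutered dogs, and from 117 to 316 CPM in the others (median 169 CPM). Again the groups did not overlap, and the difference was 2.49 on the log2 scale (SE 0.36, adjusted p = 0.00146 by edgeR). Dogs 131, 132 and 137 were the 3 highest for each of the 6 genes. Pairwise correlations of the 6 genes ranged from 0.83 to 0.99 over the 13 normal stroma libraries and from 0.76 to 0.99 without dog 131. The 6 were called in the same direction in these libraries, which favours high correlations there, so these values are descriptions. In CAS the correlations ranged from 0.59 to 0.96. Dog 136 was the highest in CAS for each of the 6, and the correlations without it were not computed.

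The neuter label and the library total could not be told apart in normal stroma. The 5 neutered dogs had the 5 lowest totals, 617177 to 1365123 counts, against 2503672 to 3932370 in the 8 others. When the log10 total was tested in place of the label, the same 6 of the 100 genes were called, all lower with a higher total (adjusted p from 0.0124 to 0.0176 by edgeR), with 0.474% of all genes called. For the total, 0 of the 100 were called as higher with a higher total, and 23 of the 100 and 10.7% of all genes had an unadjusted p below 0.05. The median log2 change per 10-fold total was 1.01 over the 100 genes and 0.24 over all. Most of the 100 were low in dog 131, which had the lowest total, so these values are descriptions. With the label and the total in 1 fit, 0 of the 100 were called for the label by edgeR (0.0241% of all genes). In that fit 13 of the 100 and 7.08% of all genes had an unadjusted p below 0.05, and the adjusted p of the 6 genes ranged from 0.633 to 0.879. Without dog 131, 4 of the 6 were called (0.333% of all genes; adjusted p of the 6 from 0.0106 to 0.0555).

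In CAS the totals of the groups overlapped (1361951 to 3954464 counts in 6 neutered dogs, 2502611 to 5572761 in the 9 others), and edgeR called 0 of the 100 genes for the neuter label (0% of all genes), with 11 of the 100 and 4.79% of all genes at an unadjusted p below 0.05. The log2 fold changes of the 6 genes in CAS ranged from 0.56 to 1.55 (adjusted p from 0.719 to 0.970 by edgeR). ENSCAFG00000009104 ranged in CAS from 210 to 1429 CPM in neutered dogs (median 363 CPM) and from 138 to 364 CPM in the others (median 233 CPM), and the groups overlapped. Dog 136, whose CAS library of 1848241 counts was the second smallest after that of dog 130, was the highest in CAS for 6 of the 6 genes. Tested against the log10 total in CAS, 0 of the 100 were called by edgeR (0% of all genes). There 10 of the 100 and 7.47% of all genes had an unadjusted p below 0.05. The 6 genes changed by -4.96 to -2.48 on the log2 scale per 10-fold total (adjusted p from 0.204 to 0.365 by edgeR). The difference of the label's effect between the stromas, tested within 13 dogs with the dog as a block, was called for 0 of the 100 by edgeR (0% of all genes; adjusted p of the 6 genes from 0.384 to 0.690) and for 3 by DESeq2 (0.229% of all genes). At an unadjusted p below 0.05 there were 18 of the 100 and 6.62% of all genes by edgeR, and 29 of the 100 and 10.1% of all genes by DESeq2. The calls for such a difference thus depended on the tool. The choice favoured genes with a weaker label effect in CAS, and the label followed the library total in normal stroma. The counts are therefore descriptions, and no difference between the stromas is read from them.

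**Figure D5:**
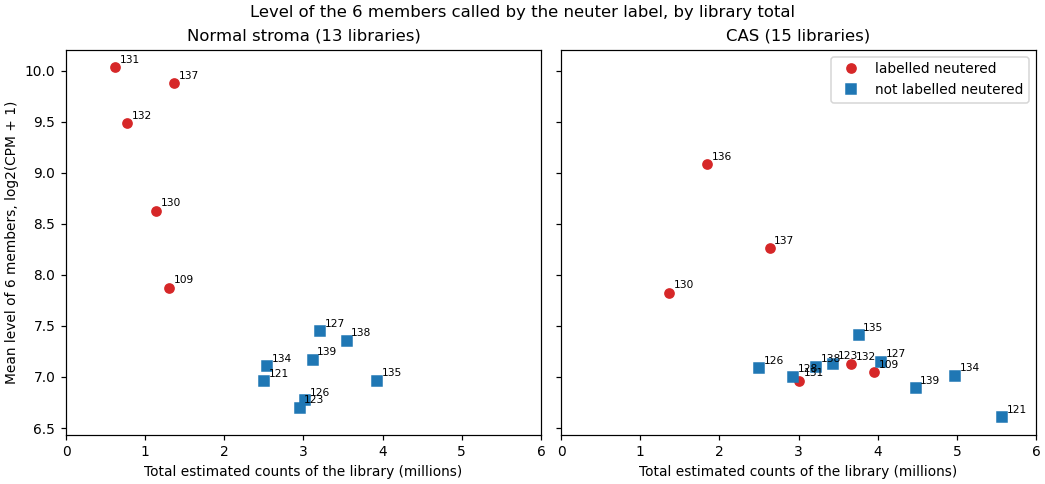
Mean level in log2(CPM + 1) (y axis) of the 6 genes called for the neuter label against the total estimated counts of the library in units of 1000000 (x axis), 1 point per dog, in normal stroma (left) and CAS (right). The neutered dogs (red) are the 5 with the lowest totals in normal stroma, while in CAS the totals overlap and dog 136 is the highest.

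None of the other labels gave a call among the 100 genes in normal stroma. In counts simulated for these libraries the test called 87.6% of genes changed 8-fold by subtype. For 8-fold over the range of ages it called 41.4% for the block and 44.3% for the dog. Absence of a call is thus not absence of an association. By edgeR 0 of the 100 were called for tubular against other subtypes (0% of all genes), 0 for the age of the block (0%) and 0 for the age of the dog (0.00862%). At an unadjusted p below 0.05 there were 1, 5 and 3 of the 100, beside 2.97%, 2.85% and 2.3% of all genes. DESeq2 called 0 of the 100 for each of the 3 labels (0.01%, 0.00862% and 0.00862% of all genes), with 1, 6 and 4 of the 100 and 4.21%, 4.24% and 3.11% of all genes at an unadjusted p below 0.05. In CAS edgeR called 0 of the 100 for each (0% of all genes each time), with 5, 11 and 5 of the 100 and 3.28%, 8.77% and 2.02% of all genes at an unadjusted p below 0.05. For the difference between the stromas edgeR also called 0 of the 100 for each (0% of all genes), with 0, 6 and 3 of the 100 and 2.4%, 3.25% and 1.61% of all genes at an unadjusted p below 0.05. DESeq2 called 0 of the 100 for each of these differences (0%, 0.00956% and 0% of all genes), with 0, 8 and 5 of the 100 and 5.32%, 5.76% and 3.06% of all genes at an unadjusted p below 0.05.

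Since the choice drew on both stromas, the comparison of CAS with normal stroma is a description for these genes. Over all 30 libraries with 6 surrogate variables, edgeR called 2 of the 100 genes at an adjusted p below 0.01 and a fold change above 2, both higher in CAS, and 3.64% of the 10472 genes tested. ENSCAFG00000002528 ranged from 6.48 CPM in dog 131 to 124 CPM in normal stroma (median 55.2 CPM) and from 70.5 to 214 CPM in CAS (median 135 CPM), and the log2 fold change was 1.23 (SE 0.22). ENSCAFG00000005483 ranged from 3.24 CPM in dog 131 to 142 CPM in normal stroma (median 36.7 CPM) and from 33.7 to 114 CPM in CAS (median 69.0 CPM), and the log2 fold change was 1.07 (SE 0.25). The groups overlapped for both genes. With the dog as a block in place of surrogate variables 4 of the 100 were called (5.54% of all genes), without either 1 (5.11%), and without the normal stroma libraries of dogs 128 and 136 1 (5.39%). With 1 surrogate variable 1 was called (4.7%), and with 7 there were 2 (3.82%, or 3.11% of the genes kept by a filter on the whole design). The median level was higher in CAS for 73 of the 100 genes, beside 69.7% of the 2821.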

How the data were processed

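Per the study, reads were pseudoaligned by kallisto 0.44.0 to the Ensembl transcriptome of CanFam3.1 and collapsed to genes by tximport. The authors deposited these as estimated counts without normalisation (18582 genes, 30 libraries, 0 values with a fraction). The counts are not per length, so levels were not compared between genes. 0 Ensembl IDs matched the reference table of gene names. All library columns were used.

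CPM were computed from library totals in Python 3.11.15 with a pseudocount of 1 CPM for log2 levels. The genes and tests were chosen with earlier results of these data known. Named genes were the first 2 in order of the difference in SD with the higher and the first 2 with the lower median in CAS, and at most 2 called genes per direction for each label, smallest adjusted p first; others were named after their values were seen. The grouping of genes by the dog with the largest part in their spread was also made after seeing the values and was not tested.

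Tests used edgeR 4.0.16 in R 4.3.3 (filterByExpr, TMM, quasi-likelihood, Benjamini-Hochberg). For CAS against normal stroma, svaseq of sva 3.50.0 gave the surrogate variables and num.sv their number, 6. That number and the filter were settled after fits with 1 and with 7 surrogate variables and another filter had been seen. The kept form matches an earlier processing of these data. The SE of a log2 fold change came from the F statistic. In simulated counts with the means and sizes of the 13 normal stroma libraries, the tests called 90.2% of 194 genes changed 8-fold for the neuter label among 9869, with 15 false calls, 87.6% of 193 for the subtype among 9543, with 14, and for 8-fold over the range of ages 41.4% of 191 for the block among 11138, with 3, and 44.3% of 194 for the dog among 11240, with 3.

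CAS and normal stroma were paired by animal; their deviations from the group means correlated from 0.0144 to 0.302 (mean 0.129, over 0.1 in 8 of 15 dogs). Alternatives were other pseudocounts, scalings, filters and measures of spread, DESeq2 1.42.0, the dog as a block, other sets of libraries and leaving out each dog. Those chosen after seeing the data were leaving out dogs 130, 131 and 132 together, the library total as a covariate, and 1 or 7 surrogate variables.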

Additional observations from a re-analysis of the deposited data

Results flagged for a closer look

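Levels were screened for a library far from its group, over the median level of the 100 genes and the 4 genes named by rule, in neutered and other dogs and in tubular and other subtypes of both stromas. Of 40 such groups 7 held a library beyond Dixon's 95% limit. Chance gives about 2 of 40 for genes not chosen by their spread, but these were chosen for a large spread in normal stroma, so the count is a description. In 6 of the 7 it was the normal stroma library of dog 131. The median level of the 100 genes there was 2.08 on the scale of log2(CPM + 1), and the nearest value was 5.41 among the 5 neutered dogs and 5.28 among the 6 dogs with another subtype. ENSCAFG00000028955 was at 0 in dog 131, with the nearest value at 5.59 among neutered dogs and at 4.73 among dogs with another subtype. ENSCAFG00000016146 was also at 0 in dog 131, with 5.34 and 5.29 as the nearest values. The 7th was the normal stroma library of dog 123, with a median level of 6.01 over the 100 genes against 5.52 in the nearest of 7 dogs with a tubular carcinoma. These groups share libraries, so the flags of dog 131 are not independent of each other, and the cause was not tested.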

How the results depend on the processing

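Of 162 alternative values 141 stayed within the limits set for them (for a count, 1.5 times the reported one) and 21 moved. The values were counts of genes and median SDs, so none could change direction. Many of the 141 were counts for the subtype, the age of the block and the age of the dog, which were reported as 0 and stayed at 0. Between CAS and normal stroma 13 values moved and 11 stayed. Of the 100 genes, 25 were chosen again with the median absolute deviation, 21 with the shallow libraries of dogs 128 and 136 kept, 27 without dogs 130, 131 and 132, and 39 to 91 without each dog in turn, 39 being the value without dog 131; other pseudocounts and scalings returned 72 to 95. The median SD in normal stroma was 0.648 without dogs 130, 131 and 132 and 0.730 to 1.43 without each dog in turn, lowest without dog 131; in CAS it was 0.505 to 0.539.

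For the neuter label the count of 6 genes fell to 0 with the library total as a covariate and was 4 to 6 without each dog; for the difference of its effect between stromas DESeq2 called 3 where edgeR called 0. No alternative gave a call for the other labels. Between CAS and normal stroma 1 gene was called without surrogate variables, 1 with 1 surrogate variable, 1 by DESeq2, 1 without the normal stroma libraries of dogs 128 and 136, and 1 to 3 without each dog (1 without dog 109, 121, 123, 130, 132, 136, 138 or 139), while 7 surrogate variables gave 2 with either filter. With the dog as a replicate block 4 genes were called. The cause of these shifts was not tested.

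In the normal stroma library of dog 131, 3 counts equal 4.86 CPM, so lower levels cannot be resolved. Only 16 of the 100 genes had at least 10 counts in each normal stroma library.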
